A study of Malus domestica with 2 samples.

Results

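Photosynthesis, chlorophyll and heme synthesis genes were followed in the pedicels of apple (Malus domestica, cultivar Saika), the stalks that carry the flowers or fruits of a cluster. They were found by words in the authors' gene descriptions, such as photosystem, light harvesting, chlorophyll, rubisco, ferredoxin, magnesium chelatase and ferrochelatase. A gene model was kept if it had at least 1 mapped sequence over both libraries or an entry on a deposited sheet of differing genes. This gave 79 of 63541 gene models, 42 of them with a sheet entry and 37 with none.

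The groups were the central pedicel and the lateral pedicel of the same cultivar, with 1 library each of messenger RNA sequenced on a Roche 454 GS-FLX pyrosequencer. The labels name no treatment and no sampling time, and the series title describes the apple as self-abscising. With 1 library per group no difference has a replicate check, and no test was run. The central library held 18483 mapped sequences and the lateral library 18368. The column headers name contigs, assembled from reads, as the counted input, so a count of 1 can stand for few reads or for many.

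Photosystems II and I are pigment-protein complexes of the thylakoid membrane that use light to move electrons from water to ferredoxin. Antenna proteins bind chlorophyll and pass light energy to them, the cytochrome b6f complex links them, and rubisco fixes carbon dioxide with the energy gained. Chlorophyll and heme are tetrapyrroles made in the plastid by a shared trunk of enzymes, which divides where magnesium chelatase or ferrochelatase inserts a metal into protoporphyrin. Green stalk tissue carries chloroplasts, while 2Fe-2S ferredoxin domains also occur in enzymes outside photosynthesis.

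The first comparison asked on which sheet the genes stood. The authors deposited 2 sheets of differing genes, headed CP and LP, and the header names NOISeq as the program. Of the 844 entries on the deposited CP sheet 12 were photosynthesis or tetrapyrrole genes, a share of 1.42%, and of the 741 entries on the deposited LP sheet 30 were, a share of 4.05%. Counted over the 79 genes, 15.2% were CP and 38.0% LP entries, where over all gene models 1.33% were CP and 1.17% LP entries and among gene models with a sequence 3.57% and 3.17%. A sheet entry was itself a way to be chosen, so these shares are a description only. Of the 160 gene models that the words matched in the whole table, whatever their sheet, 6 were CP entries (3.75%) and 4 were LP entries (2.50%), so the larger LP number came with the sheets' own annotation. Of the 42 genes with an entry, 32 were found by the sheet's annotation alone and would not have been found in the whole table.

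The split between the sheets differed in number by role. Antenna proteins had 2 CP and 9 LP entries, and tetrapyrrole synthesis and chlorophyll breakdown had 0 and 7. Rubisco-related genes had 0 and 3, and the Rieske protein of cytochrome b6f 0 and 1. Genes found by photosystem II words had 4 and 4, or 2 and 4 without a pair whose Arabidopsis matches belong to another complex, named below. Both genes of that pair are CP entries, and LP entries of the PsbP family were kept, so the second split is not read as a lean. Photosystem I genes had 3 and 3, and genes found by the word ferredoxin 3 and 3.

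**Figure D1:**
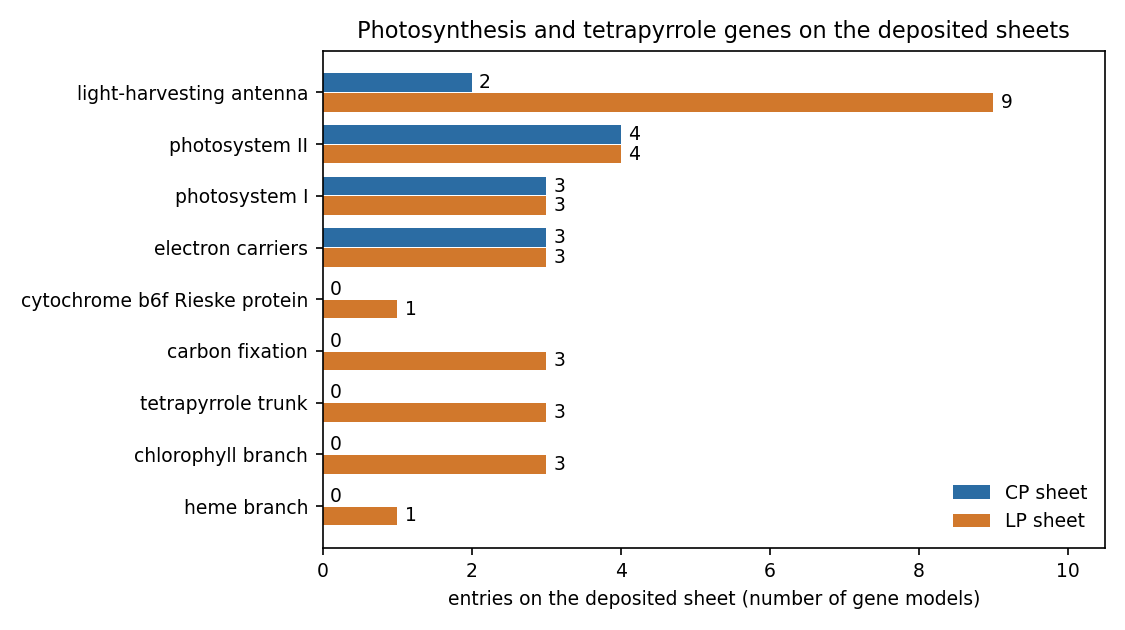
Entries on the deposited CP sheet (blue) and LP sheet (orange) for each role of the photosynthesis and tetrapyrrole genes, with the number of gene models on the horizontal axis. Antenna proteins stand at 2 and 9, the 3 tetrapyrrole roles are on the LP sheet alone, and the photosystem II words (4 and 4, or 2 and 4 without the pair of NDH complex homologs) and photosystem I (3 and 3) have entries on both sheets.

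Antenna proteins were the role with most sheet entries. Light-harvesting complex II subunit B1, a main protein of the photosystem II antenna, had a pair of LP entries matched to the same Arabidopsis gene, AT2G34430. Of these, MDP0000309425 had 1 central and 0 lateral sequences and MDP0000601491 had 0 and 1. The 2 copies had opposite counts on the same sheet, with deposited log2 ratios of -2.10 and -2.18. The central sequence of MDP0000309425 was not uniquely mapped, so it may belong to another gene model.

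Chlorophyll A/B binding protein 1, another protein of that antenna, was on both sheets, with MDP0000656152 as the CP and MDP0000293052 as the LP entry. Both match AT1G29930, and each had 0 central and 1 lateral sequences. The CP entry therefore had its single sequence in the library that its sheet is not named for. That sequence was not uniquely mapped, so it may belong to another gene model.

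The other entries named for single antenna subunits were LP entries. Light-harvesting chlorophyll B-binding protein 3 (MDP0000196762), a light harvesting complex photosystem II protein (MDP0000492744), and photosystem I light harvesting complex genes 3 and 6 (MDP0000866655 and MDP0000337585) each had 1 sequence in both libraries. The first 2 had a deposited FDR of 0, and photosystem I light harvesting complex gene 6 had a deposited FDR of 8.98e-07. Their counts did not separate the libraries.

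A further 3 entries carried the general name Chlorophyll A-B binding family protein and match Arabidopsis genes of distant antenna relatives. MDP0000542944, on the CP sheet, matches the early light-induced protein gene AT3G22840, which protects against excess light in Arabidopsis, and had 1 sequence in each library. MDP0000471588, on the LP sheet, matches AT4G17600, known in Arabidopsis as LIL3, a helper of chlorophyll synthesis, and had 1 central and 2 lateral sequences. MDP0000411498, on the LP sheet, matches AT1G44575, the gene of PsbS, which switches the antenna to heat dissipation. It had no sequence in either library, which allows a share of up to 0.0162% of the central and 0.0163% of the lateral library.

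Genes found by photosystem II words were divided between the sheets. On the CP sheet were photosystem II reaction center W (MDP0000281971), a small subunit that stabilizes the complex with its antenna, with 1 central and 0 lateral sequences, and photosystem II subunit X (MDP0000258622), another small membrane subunit, with 1 and 1. PsbP-like protein 2 (MDP0000203627), with 1 and 0, and PsbQ-like 2 (MDP0000481445), with 1 and 1, were also CP entries. In Arabidopsis both of these belong to the plastid NDH complex, which returns electrons around photosystem I, and not to photosystem II.

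On the LP sheet, photosystem II subunit R (MDP0000800352), which helps to hold the oxygen-evolving proteins, had no sequence in either library and a deposited FDR of 0. PsbP-like protein 1 (MDP0000203624), needed in Arabidopsis to repair photosystem II, had 1 sequence in each. Another 2 LP entries of the PsbP family, MDP0000821298 and MDP0000291489, had 0 central and 1 lateral, and 1 and 1. Of the 2 photosystem II models on neither sheet, a PsbQ model (MDP0000174182) had 1 and 1 and a PsbX model (MDP0000217362) had 0 and 1.

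Photosystem I genes were likewise divided. Photosystem I subunit F (MDP0000122042), which docks the electron donor plastocyanin, and subunit E-2 (MDP0000452016), which helps to bind ferredoxin, were CP entries with no sequence in either library. Subunit G (MDP0000481097), which helps to bind the antenna, was an LP entry with 1 sequence in each, and subunit O (MDP0000624964) was an LP entry with none. Photosystem I P subunit, which in Arabidopsis also curves the thylakoid membrane, had 1 entry on each sheet, both matched to AT2G46820. The CP copy (MDP0000210616) and the LP copy (MDP0000325346) each had 1 central and 0 lateral sequences, so equal counts stood on opposite sheets.

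The 5 photosystem I models on neither sheet held few sequences. A PsaG/PsaK model (MDP0000288678) had 2 central and 2 lateral sequences. The other models, a second PsaG/PsaK model, 2 PsaE models and a PsaL model, had 0 or 1 in a library. In total the 11 photosystem I models held 6 central and 7 lateral sequences, and the 10 models found by photosystem II words 7 and 7.

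**Figure D2:**
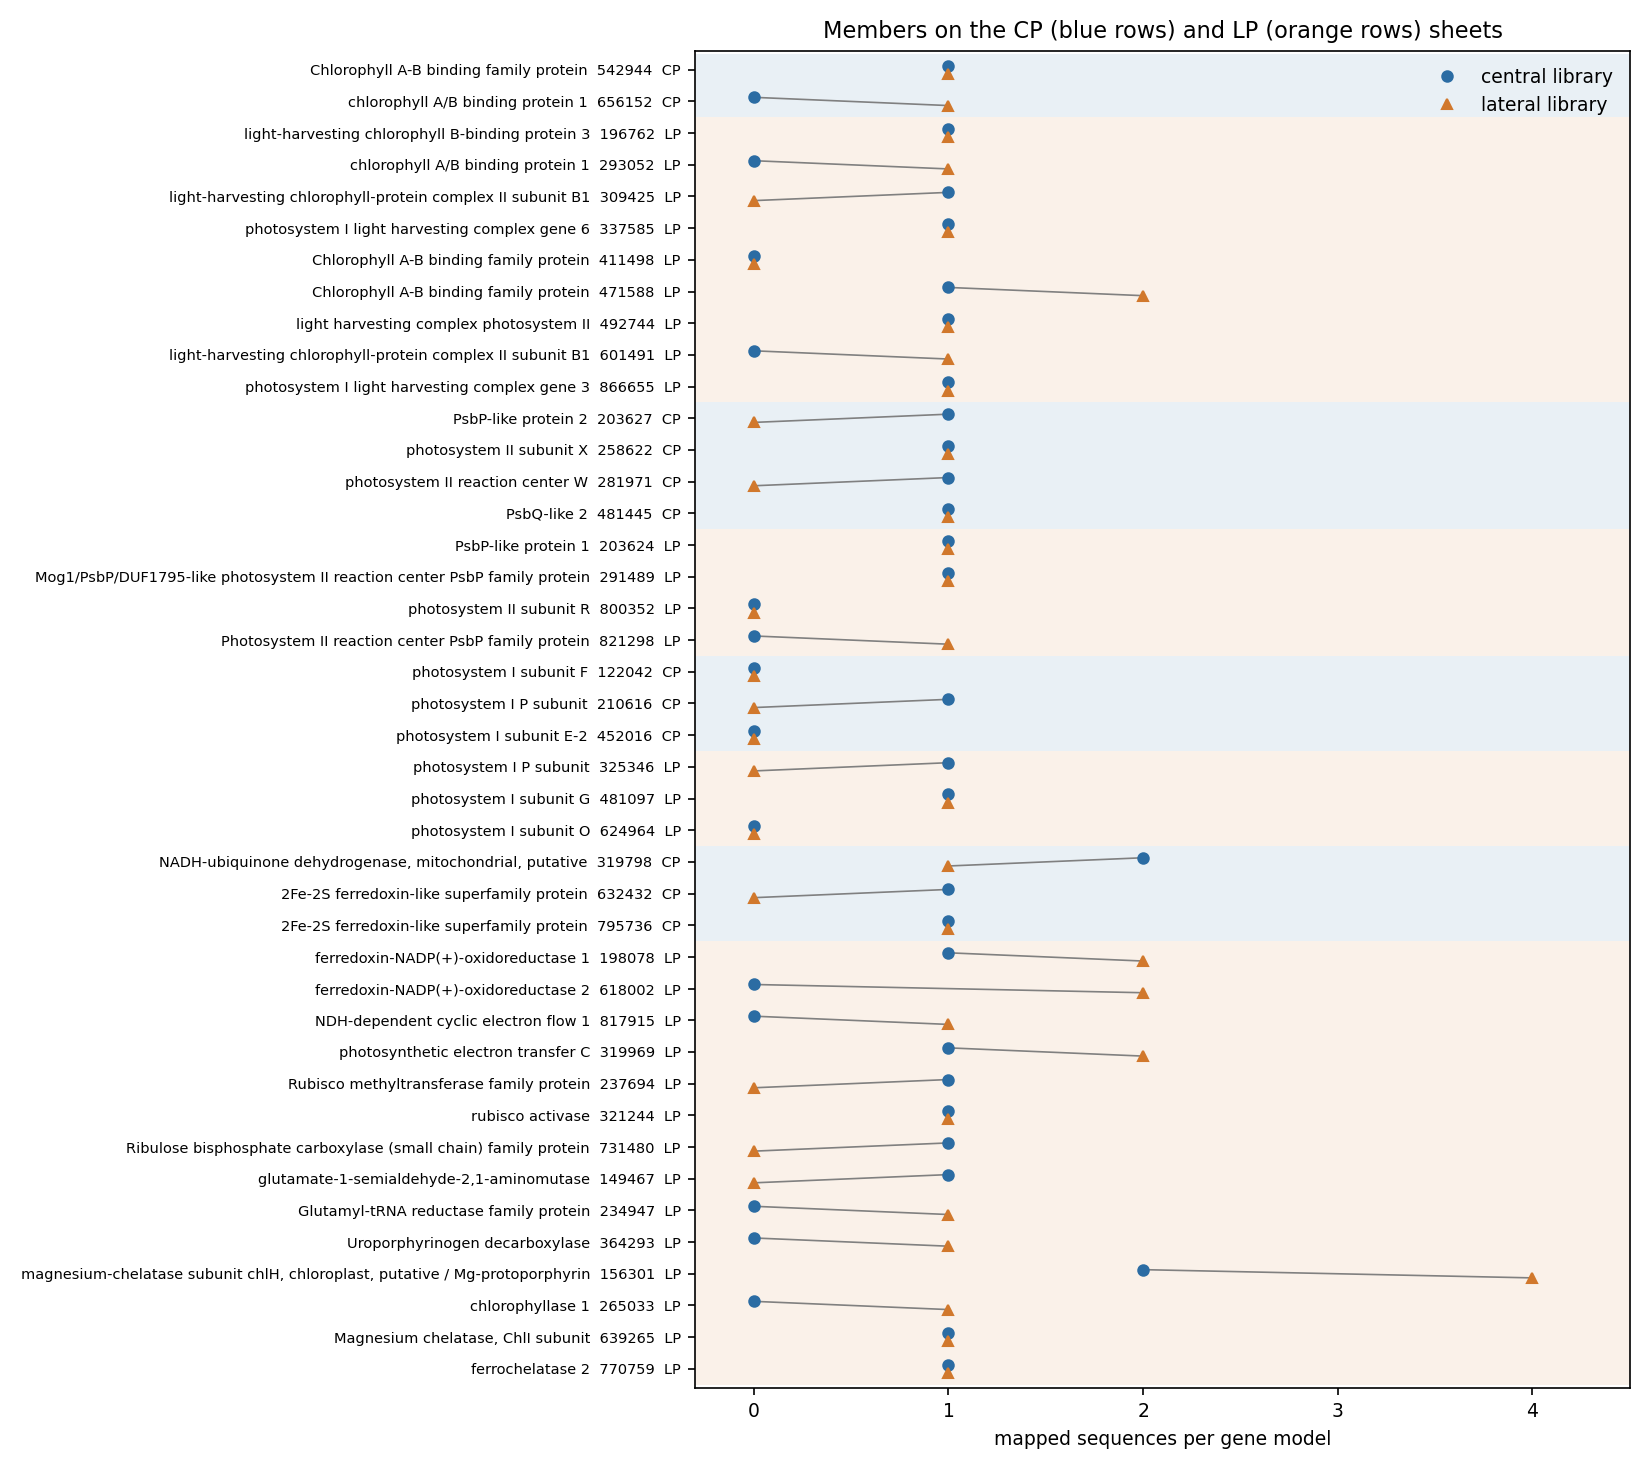
Mapped sequences of each of the 42 genes with a sheet entry, central library as blue circles and lateral library as orange triangles, with grey lines joining the 2 libraries. Rows are shaded blue for the CP and orange for the LP sheet and named by the authors' annotation and the last digits of the gene model. Most rows hold 0 or 1 sequence per library, and magnesium chelatase subunit chlH reaches 4.

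Electron carriers came next along the chain. The Rieske protein of cytochrome b6f (MDP0000319969, annotated photosynthetic electron transfer C) was an LP entry with 1 central and 2 lateral sequences. Ferredoxin-NADP(+)-oxidoreductases 1 and 2, which pass electrons from ferredoxin to NADP, were LP entries as well. Oxidoreductase 1 (MDP0000198078) had 1 and 2 sequences, and oxidoreductase 2 (MDP0000618002) had 0 and 2. These 3 entries each had more lateral than central sequences, and each had a deposited FDR of 0. By uniquely mapped sequences oxidoreductase 1 had 1 and 1, so its lateral excess may belong to another gene model. Oxidoreductase 2 then had 0 and 1, and the Rieske protein 1 and 2.

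NDH-dependent cyclic electron flow 1 (MDP0000817915), a subunit of the plastid NDH complex, was an LP entry with 0 and 1 sequences. The word ferredoxin also found 3 CP entries. MDP0000319798, annotated as a mitochondrial NADH-ubiquinone dehydrogenase of the respiratory chain, had 2 central and 1 lateral sequences. Of these, 1 central and 1 lateral were uniquely mapped. A pair of 2Fe-2S ferredoxin-like proteins, MDP0000632432 and MDP0000795736, had 1 and 0, and 1 and 1. No sequence of that pair was uniquely mapped.

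Most of the 30 models found by the word ferredoxin alone were on neither sheet (24 models), and they include domains shared with other enzymes. MDP0000136090, a protein with a ferredoxin-type beta-grasp fold, had 1 central and 4 lateral sequences, and MDP0000142098, with a domain shared by transketolases, had 2 and 4. MDP0000318858, with an alpha-helical ferredoxin domain, had 3 and 3, MDP0000439248 had 2 and 2, and a second transketolase-type model, MDP0000252036, had 2 and 1. The beta subunit of ferredoxin-thioredoxin reductase (MDP0000203322), which passes the light signal to Calvin cycle enzymes, had 0 and 2 on a gene model of 441 bases. Its deposited RPKM, the count scaled by gene model length and library total, was 247 in the lateral library and the highest of the 79 genes. The 30 models held 26 central and 37 lateral sequences, and the other 49 genes together 36 and 41.

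Rubisco-related genes had LP entries only. Rubisco activase (MDP0000321244), which frees rubisco of bound inhibitors, had 1 sequence in each library and a deposited FDR of 0. The small chain of rubisco (MDP0000731480) had 1 central and 0 lateral sequences, and a Rubisco methyltransferase family protein (MDP0000237694) also had 1 and 0. The sequence of the small chain was not uniquely mapped. A pair of models with a ribulose-phosphate binding barrel, a fold shared by several enzymes, each had 1 and 0 and stood on neither sheet. Summed, the 5 models held 5 central sequences and 1 lateral sequence (95% exact Poisson intervals 1.62 to 11.7 and 0.0253 to 5.57), and the 3 LP entries alone held 3 and 1.

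Tetrapyrrole genes with a sheet entry were all on the LP sheet, at several steps of the pathway. Glutamyl-tRNA reductase (MDP0000234947, matched to AT1G58290), the committed and regulated step of the trunk, had 0 central and 1 lateral sequences. Glutamate-1-semialdehyde-2,1-aminomutase (MDP0000149467), which makes aminolevulinate in the next step, had 1 and 0. Uroporphyrinogen decarboxylase (MDP0000364293), further down the trunk, had 0 and 1. The counts of these 3 trunk enzymes pointed both ways.

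At the branch point, magnesium chelatase subunit chlH (MDP0000156301), the large subunit that binds protoporphyrin, had 2 central and 4 lateral sequences over 4143 bases, or 26.1 and 52.6 RPKM. The lateral library held 66.7% of its 6 sequences (95% exact interval 22.3% to 95.7%), an interval that includes the 49.8% expected from the library totals. Subunit ChlI (MDP0000639265, matched to AT4G18480), the ATPase of that enzyme, had 1 and 1, and ferrochelatase 2 (MDP0000770759), which starts the heme branch, also had 1 and 1. Chlorophyllase 1 (MDP0000265033), which removes the phytol tail of chlorophyll, had 0 and 1.

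Trunk and branch models on neither sheet were 4. A uroporphyrinogen III synthase (MDP0000200456) had 1 central and 2 lateral sequences, and a further ChlI model (MDP0000639820) had 2 and 1. Another 2 glutamyl-tRNA reductase models, MDP0000172827 and MDP0000656101, each had 1 and 1. The 11 tetrapyrrole genes together held 10 central and 14 lateral sequences. Their lateral share was 58.3% (95% exact interval 36.6% to 77.9%).

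The second comparison asked whether the mapped sequences of all these genes differed in number between the libraries. The 79 genes held 62 sequences in the central library, 0.335% of it (95% exact interval 0.257% to 0.430%), and 78 in the lateral library, 0.425% (0.336% to 0.530%). The log2 ratio of these shares, lateral over central, was 0.34. Of the 140 sequences 55.7% were lateral (47.1% to 64.1%), where the library totals give 49.8%, so the difference lay within counting error. The 37 genes on neither sheet, chosen by their total alone, held 32 and 43 sequences, and the 42 with an entry 30 and 35. Of the 79, 28 had more lateral, 19 more central and 27 equal counts, and 5 had none. Of the 74 with a sequence these were 37.8%, 25.7% and 36.5%, against 35.4%, 36.2% and 28.4% of all gene models with a sequence.

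**Figure D3:**
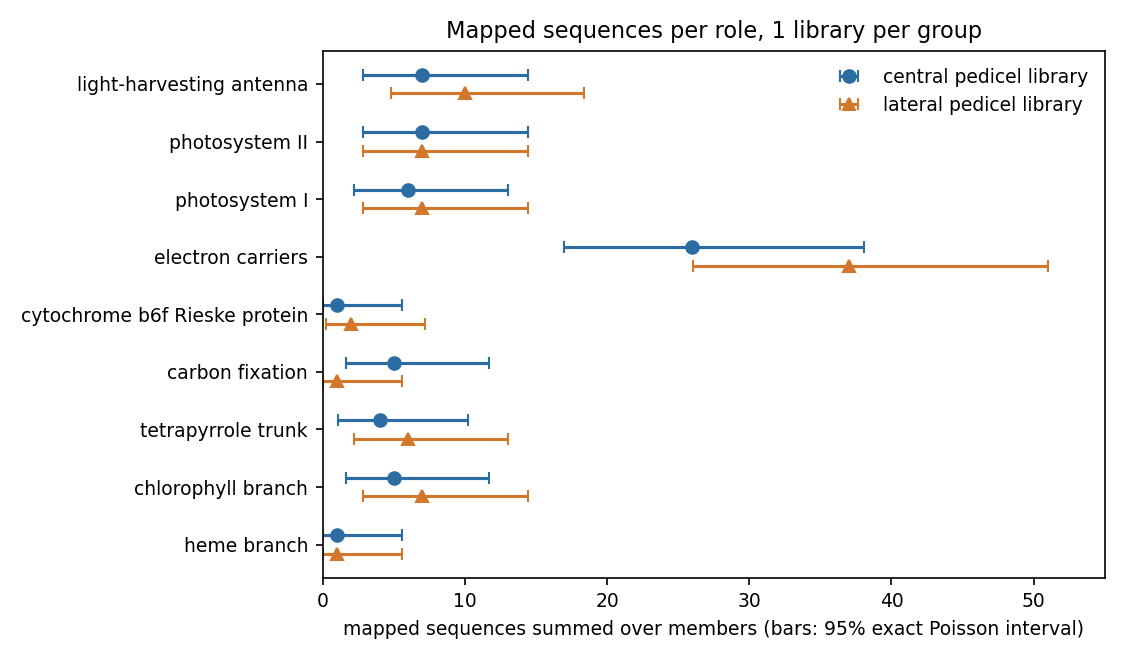
Mapped sequences summed over the genes of each role in the central (blue circles) and lateral (orange triangles) library, with 95% exact Poisson intervals that cover counting error only. The intervals of both libraries overlap in each role, from antenna proteins (7 and 10) to models found by the word ferredoxin, drawn as electron carriers although some are other enzymes (26 and 37), and models found by the words rubisco and ribulose, drawn as carbon fixation (5 and 1).

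For single genes a fixed size was used, a fold of at least 2 between library shares with 0.5 added to each count, among gene models with at least 3 sequences. Of the 79 genes 13 had 3 sequences or more. Among them 1 was past the fold with more lateral sequences, MDP0000136090 (log2 ratio 1.59), and 0 were past it with more central ones. Over all 4508 gene models with 3 sequences 9.89% were past the fold in the lateral and 10.0% in the central direction, so 1 of 13 is near the background. The lateral share of MDP0000136090 was 80.0% of 5 sequences (95% exact interval 28.4% to 99.5%). The median log2 ratio of the 13 was 0.75, and of all 4508 it was 0.01, where a median of such small whole counts moves in steps.

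Sheet and count were then set side by side. Of the 12 CP genes 5 had more central, 1 more lateral and 4 equal counts, and 2 had no sequence. Of all CP entries 34.0% had more central and 16.2% more lateral sequences. Of the 30 LP genes 12 had more lateral, 5 more central and 10 equal counts, and 3 had none. Of all LP entries 31.4% had more lateral and 15.7% more central sequences. The 5 LP genes with more central sequences were 1 copy of light-harvesting complex II subunit B1, photosystem I P subunit, the rubisco small chain, the Rubisco methyltransferase family protein and glutamate-1-semialdehyde-2,1-aminomutase. For the copy of subunit B1 and the rubisco small chain, that sequence was not uniquely mapped. Nor was the lateral sequence of chlorophyll A/B binding protein 1 on the CP sheet. Counts on a sheet's own side had the same limit. The central sequence of CP gene MDP0000632432 was not uniquely mapped. By uniquely mapped sequences, CP gene MDP0000319798 and LP gene MDP0000198078 each had 1 central and 1 lateral. The sheets were made from these same libraries, so the counts are no separate support for a direction.

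Of the LP genes 15 of 30 had a deposited FDR of 0, against 24.7% of all LP entries, and of the CP genes 0 of 12 did, against 19.4% of all CP entries. The smallest deposited FDR among the CP genes was 1.68e-13, for chlorophyll A/B binding protein 1. The largest deposited FDR values among the 42 genes were those of MDP0000632432 on the CP sheet (2.83e-05) and of PsbP-like protein 1 on the LP sheet (9.85e-06). The largest values on the whole deposited sheets were 0.000172 and 4.78e-05.

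The authors also deposited log2 ratios for 215 genes, of which 8 were photosynthesis or tetrapyrrole genes, all with a negative sign. In that deposited table, 128 ratios in all were negative and 87 positive, and every ratio of an LP entry (113 of 113) was negative, so the sign of the 7 LP genes follows from their sheet. The first line of that deposited table names the direction as lateral over central, whereas 7 of the 8 stood on the LP sheet, so the sign is given as deposited and not read as a direction. The ratio farthest from 0 was that of glutamate-1-semialdehyde-2,1-aminomutase (-4.51 in the authors' deposited table), followed by the Rubisco methyltransferase family protein (-3.51), glutamyl-tRNA reductase (-2.71) and ferrochelatase 2 (-2.63). The deposited ratios of photosystem I P subunit and of 1 copy of light-harvesting complex II subunit B1 were both -2.18. The eighth deposited ratio, also -2.18, belonged to MDP0000253624, a model described as Ferredoxin that is on neither sheet and had 1 sequence in each library. By their counts, 4 of the 8 had more central, 2 more lateral and 2 equal sequences, and 23 LP genes had no deposited ratio. Of the LP genes 23.3% had one, against 15.2% of all LP entries.

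**Figure D4:**
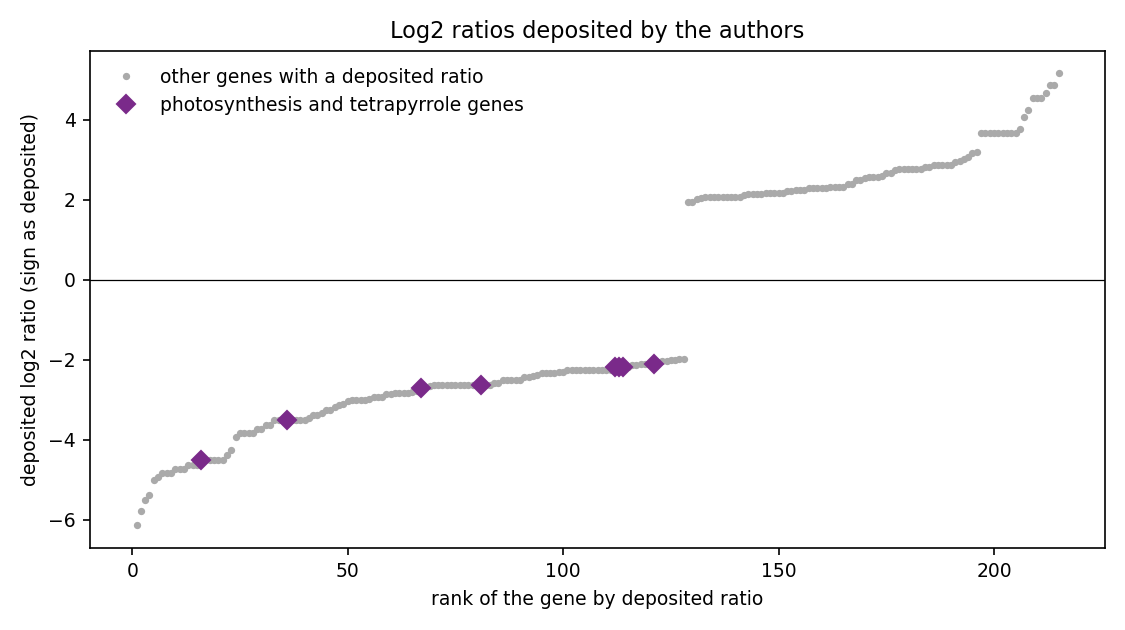
The 215 log2 ratios deposited by the authors in rank order (grey), with the 8 photosynthesis and tetrapyrrole genes as purple diamonds and the sign as deposited on the vertical axis. The 8 lie between -4.51 and -2.10, on the negative side.

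Gene ontology terms on the sheets were counted in the same way. The choice of genes did not use them, but most entries that carry them are the same genes, so these counts are no separate support. The term photosynthesis, light harvesting was carried by 1 CP and 7 LP entries, all of them antenna proteins described above. The term photosystem II was carried by 4 and 4 entries, and photosystem I by 3 and 1. The broader term photosynthesis was carried by 7 and 9 entries, of which 6 and 6 were among the 42 genes. The other 4 included 2 copies of solanesyl diphosphate synthase 2 on the LP sheet, which makes the side chain of plastoquinone. The rest were a minichromosome maintenance family protein (MDP0000142758) on the LP sheet and a myb-like transcription factor family protein (MDP0000319772) on the CP sheet.

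Further genes were searched by other words for these pathways, where a match by word alone does not place a gene in the pathway. Words for enzymes of the Calvin cycle found, apart from the 79 genes, 6 models with 6 central and 5 lateral sequences, 1 on the CP and 3 on the LP sheet. The LP entries were phosphoglycerate kinase 1 (MDP0000325409, 1 and 1 sequences, deposited log2 ratio -2.25), a phosphoglycerate kinase family protein and a transketolase family protein (MDP0000769597). The last matches AT5G50850, in Arabidopsis a subunit of mitochondrial pyruvate dehydrogenase and no enzyme of the cycle. The CP entry was glyceraldehyde-3-phosphate dehydrogenase of plastid 1, matched to AT1G79530, and its annotation does not place it in the cycle. Other tetrapyrrole enzymes gave 1 model, hydroxymethylbilane synthase (MDP0000144555), a trunk enzyme between aminolevulinate and uroporphyrinogen, on the LP sheet with 1 sequence in each library. Other thylakoid genes were 8 models with 5 and 8 sequences, 2 on the CP and 6 on the LP sheet. The PetM subunit of cytochrome b6f had 1 entry on each sheet, and thylakoid-associated phosphatase 38, which in Arabidopsis reverses state transitions, was a CP entry with 0 and 2 sequences. Of the 2 models in these lists with at least 3 sequences, 0 were past the fold in either direction.

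Words for other cell types and for heat shock genes were counted beside these groups. Epidermis and cuticle words gave 11 CP and 2 LP entries and 24 central and 27 lateral sequences on 30 of the 139 models they matched, the others being at 0. Xylem words gave 1 and 6 entries and 11 and 16 sequences on 13 of 72 models, and phloem words 1 and 2 entries and 3 and 2 sequences on 3 of 3 models. Heat shock and chaperone words gave 16 and 6 entries and 146 and 134 sequences on 128 of 366 models. By number of entries alone, xylem leaned to the LP sheet (741 entries in all) along with antenna and tetrapyrrole genes. Epidermis and heat shock leaned to the CP sheet (844 in all). The sequences did not all follow, since epidermis words had 24 central and 27 lateral, and heat shock words 146 and 134. The part of these cell types and of heat shock genes in the division was not tested. In such a bulk sample fewer green cells and less RNA per green cell cannot be told apart.

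Most gene models that the words matched in the whole table carried no sequence, and the same was true of all gene models. By the annotation of the whole table, the words matched 160 models, and 46 of them, 28.7%, had a sequence, against 28.9% of all gene models. The 15 models annotated Chlorophyll A-B binding protein, the 3 of the rubisco small chain and the 3 of the rubisco large subunit all had 0 in both libraries. So did the 5 models of psaA and psaB and the 6 of PsbJ, which in plants are plastid-encoded proteins. By the sheets' own annotation 10 of the 11 antenna models had a sequence, and a rubisco small chain model had 1, not uniquely mapped. Most entries of both sheets had a sequence, 654 of 844 CP and 582 of 741 LP entries, so this is not particular to antenna genes. In all, 113 matching models had no sequence and no sheet entry and stood just outside the choice. Of the 37 genes on neither sheet, 7 with 1 central and 10 with 1 lateral sequence stood just inside it. Together with genes that had a sheet entry, 34 of the 79 had a single sequence. Another 27 of the 79 had 2 sequences, and the highest count in a library was 4. Of the 79 genes 17.6% of those with a sequence had at least 3, against 24.6% of all gene models with a sequence.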

How the data were processed

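Counts of mapped and of uniquely mapped sequences per gene model, with RPKM, were deposited by the authors for 1 central and 1 lateral library. Trimmed contigs were what was counted, per the file headers. For the aligner, the assembler and the gene models, no name or version is stated (not given in the sources used here). The deposited RPKM could be recomputed from count, gene length and library total. P-value and FDR columns were deposited by the authors on the CP and LP sheets (NOISeq, per the file headers), and log2 ratios were deposited separately. A further 13 library columns of that table were not used.

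The genes and lists were chosen with earlier results of these data known. Genes were named if on a sheet, with a deposited ratio, or with at least 3 sequences, plus models of roles without such genes and a few chosen after their values were seen. Roles follow annotation words in a fixed order. No test, edgeR's included, was run, since each group has 1 library and the genes were partly chosen by this contrast. Intervals are 95% exact (Poisson for counts, Clopper-Pearson for shares). They and the limit of 3 sequences for a count of 0 cover counting error only and treat contigs as independent. The fold rule was run on simulated counts with changes much larger than its threshold. Recovery was required only at a depth far above the real one. That check does not show how the rule performs on counts as low as these. No gene model identifier matched the RefSeq gene table (0 of 79), so no coordinates or sequences are given. Tools were Python 3.11.15, pandas 2.3.3, numpy 2.4.6, scipy 1.17.1 and matplotlib 3.10.9.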

Additional observations from a re-analysis of the deposited data

How the results depend on the processing

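Of 41 alternative values 34 stayed within the limits set for a change, 7 moved and 0 reversed. All were listed as planned, but the genes and lists were chosen with earlier results of these data known. The listing therefore does not show that each alternative was set before the data were seen. The log2 ratio of the summed sequences (0.34) lay between 0.20, without the genes found by the word ferredoxin alone, and 0.44, with genes on neither sheet. The count of 1 gene past the fold in the lateral direction became 0 without the ferredoxin genes and 0 with identical annotations added up, 22 without a minimum above 1 sequence, 7 with the authors' RPKM ratio and 7 at 1.5-fold. In the central direction the count of 0 became 16 with a minimum of 1 sequence and 3 at 1.5-fold. The minimum of 1 sequence counts genes with 1 sequence against 0. The RPKM ratio places counts of 2 against 1 just past 2-fold in the lateral direction and just short of it in the central one, because the library totals differ. Over all gene models the RPKM ratio gave 34.5% lateral and 7.32% central, the minimum of 1 sequence 27.9% and 28.3%, and 1.5-fold 35.4% and 36.8%. Sheet entries ranged from 8 to 12 on the CP sheet and from 27 to 30 on the LP sheet, where the lowest CP value came with a deposited FDR under 1e-06. No paired analysis was possible because each group has 1 library and no test was run, and for the same reason no library could be left out. Depth limits every gene here, since 4 sequences was the highest count.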

Other observations

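The deposited log2 ratios take few distinct values. The 215 ratios hold 94 distinct values at 4 decimals, and 3 of the 8 photosynthesis and tetrapyrrole genes share the value -2.18. The ratios of glutamate-1-semialdehyde-2,1-aminomutase and of the Rubisco methyltransferase family protein differ by exactly 1.00, and their decimal part, 0.5129, occurs in 20 of the 215 ratios. The mapped sequences of these 2 genes in the whole table are the same, 1 central and 0 lateral.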
